A study of Mus musculus with 12 samples.

Results

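Bipotential mouse embryonic liver (BMEL) cells are immortal epithelial lines that resemble hepatoblasts, the fetal liver cells from which hepatocytes and bile duct cells arise. In ordinary culture they keep an undifferentiated state, as floating aggregates they take on hepatocyte features, and in Matrigel, a basement membrane gel, they can form duct-like structures. Lines isolated from different embryos or cells can differ in what they express even where they share the liver programme.

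The lines 9A1 and 14B3 were compared with each other, with every array of the series in the comparison: the 6 arrays whose titles name 14B3 against the 6 that name 9A1, 12 of 12 arrays. Both lines were isolated independently from liver of mouse embryos at 14 days post coitum, of the strain combination CBA/J x C57Bl/6J, and the labels do not say which parental alleles each line carries. Each line was grown in basal culture, as aggregates for 5 days and in Matrigel, with 2 biological replicates per line and culture. The Matrigel cultures were labelled 10 days, except Matrigel_14B3 replicate 1, which was labelled 5 days. Line differences in Matrigel, and means over cultures that include them, therefore cannot be fully told apart from a difference in culture time. Each line is 1 isolate, so a difference between the lines cannot be told apart from any other difference between these isolates, and the p-values speak only of the spread among these arrays. In bulk RNA, fewer cells of a type and less RNA per cell cannot be told apart.

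RNA was hybridised to Affymetrix 430A arrays, and the values are signal intensities per probe set, given here on the log2 scale. The line difference is 14B3 minus 9A1 in log2 units, averaged over the 3 cultures, and only autosomal genes are described, 11957 of the 12393 genes measured. A gene was called at an adjusted p below 0.05 (limma, two-sided, Benjamini-Hochberg over the 12393 genes). A level of 8.50 served as a guide to background, the 90th percentile of 40 genes of retina, sperm, lens and other tissues not expected here, and 6034 autosomal genes (50.5%) had a mean under it. A fold difference with 1 line under the guide depends on the background signal of the array. Array medians ran from 268 to 281 on the linear scale, and replicates of a group correlated at 0.9844 to 0.9925.

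Of the 11957 autosomal genes, 708 (5.92%) were called, 298 (2.49%) higher and 410 (3.43%) lower in 14B3. The difference was at least 1 log2 unit for 125 of them, 43 higher and 82 lower. The median difference over all autosomal genes was 0.04. In 618 genes (5.17%) the arrays of the lines lay apart in every culture with 1 sign, and 374 of these were called. In 105 genes (0.878%) all 6 arrays of a line lay above all 6 of the other, and 92 of these were called. Within 1 culture, 217 genes (1.81%) were called in basal culture, 178 (1.49%) in aggregates and 443 (3.7%) in Matrigel, and 41 genes were called in each of the 3.

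The number of calls depended on how replicate numbers were treated. The labels number the replicates and do not say whether same-numbered samples were handled together. With the number as a block shared by both lines 1193 genes were called, including each of the 708. With line and number together as a random block, 326 genes were called, 125 higher and 201 lower. Leaving out basal_14B3 replicate 2 gave 465 calls, the lowest count with 1 array left out, and 472 were called without basal_9A1 replicate 1. A call is named as kept below where it also passed with the random block and without each 1 of the 12 arrays in turn. That held for 325 genes (2.72%), 125 higher and 200 lower. Without the Matrigel arrays 282 genes were called, 260 of them among the 708. The called genes below that lost their call there are given with that value, and Tagln is given by its difference in each culture instead.

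**Figure D1:**
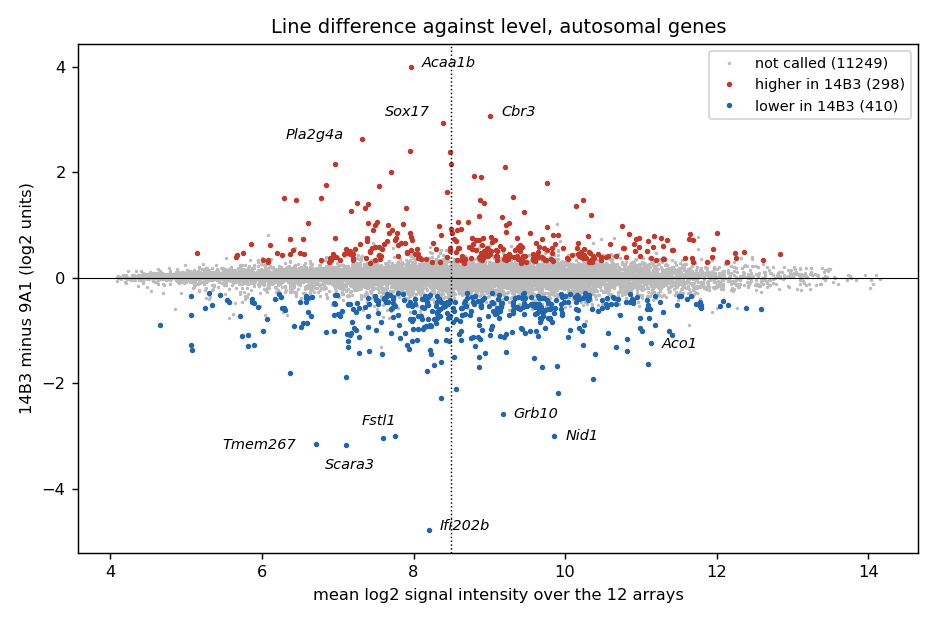
Line difference (14B3 minus 9A1, log2 units, averaged over the 3 cultures) against the mean log2 signal intensity over the 12 arrays for each autosomal gene. Red points are the 298 genes called higher in 14B3, blue points the 410 called lower, grey points genes not called, and the dotted line is the background guide of 8.50; the widest differences are those of Ifi202b (-4.78) and Acaa1b (4.0).

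Called genes with the lines on opposite sides of the background guide on every array were named by size of difference, up to 4 per direction. That gave 7 genes, which is not a count over all autosomal genes. Sox17, Niban1, Snx20 (a sorting nexin) and Lefty1 (a secreted inhibitor of Nodal signalling) were above the guide in 14B3 only. Ifi202b, Grb10 and Chst15 (a chondroitin sulfotransferase) were above it in 9A1 only. The margins differed: Lefty1 ran up to 8.41 in 9A1 and from 8.60 in 14B3, a difference of 0.57, against 2.59 for Grb10. Snx20 differed by 1.02, 1.12 and 1.02 in the 3 cultures, from 7.76 to 8.33 in 9A1 and from 8.81 to 9.37 in 14B3.

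For 4 of these 7 genes the RefSeq promoter table (GRCm38.p6) holds the start region, and the 150 bases before the start are printed. The 7 are only part of the 105 genes in which all 6 arrays of a line lay above all 6 of the other. Capitals mark CG, the dinucleotide that DNA methylation uses, which reads the same on both strands; sequences run 5′ to 3′ on the gene's strand. Grb10 and Chst15 each have 2 starts in the table, of which 1 is shown.
Ifi202b, chr1:173982845-173982994, minus strand: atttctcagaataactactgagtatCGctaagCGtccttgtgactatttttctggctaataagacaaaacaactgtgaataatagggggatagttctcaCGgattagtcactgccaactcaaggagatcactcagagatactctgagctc
Grb10, chr11:12037421-12037570, minus strand: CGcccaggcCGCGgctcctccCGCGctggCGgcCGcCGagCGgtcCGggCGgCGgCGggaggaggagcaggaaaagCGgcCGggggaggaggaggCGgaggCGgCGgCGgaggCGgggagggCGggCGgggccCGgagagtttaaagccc
Chst15, chr7:132317229-132317378, minus strand: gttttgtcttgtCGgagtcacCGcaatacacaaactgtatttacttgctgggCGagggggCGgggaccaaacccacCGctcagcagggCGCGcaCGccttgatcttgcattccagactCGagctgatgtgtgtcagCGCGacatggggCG
Niban1, chr1:151571223-151571372, plus strand: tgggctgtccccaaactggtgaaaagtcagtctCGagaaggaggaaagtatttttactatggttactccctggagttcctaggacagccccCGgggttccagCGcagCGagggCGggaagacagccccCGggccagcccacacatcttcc
The Ifi202b window holds 3 CG, that of Niban1 6, that of Chst15 12 and that of Grb10 23. Of 9526 promoters of measured autosomal genes, the median held 10 CG in the same window, 5.3% held 0, and 5.5% held at least the 23 of Grb10. The 238 promoters of genes called higher in 14B3 had a median of 10 and the 308 of genes called lower a median of 9, so the lines' differing genes had about the CG content of all measured genes.

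The liver and epithelial identity genes fixed as markers were at like levels in both lines, with exceptions among the bile duct and pioneer factor genes. Krt8 and Krt18 (not a fixed marker), the simple epithelial keratins, had means of 13.77 and 13.13 in both lines. Hnf4a, the nuclear receptor at the centre of the hepatocyte network, had a mean of 12.07 in 9A1 and 12.22 in 14B3 (difference 0.14 ± 0.09 SE, adjusted p = 0.543). Krt19, a keratin of hepatoblasts and ducts, differed by 0.17 (adjusted p = 0.419) and Alb (albumin) by -0.20 ± 0.35 SE (0.871). Ttr (transthyretin) differed by 0.25 (0.686), Epcam by -0.08 (0.854) and Cdh1 (E-cadherin) by -0.06 (0.894). Alb and Epcam spanned a wide range within each line, 8.17 to 13.69 for Alb in 9A1 and 7.71 to 13.16 in 14B3, with the low values in basal culture.

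Afp (alpha-fetoprotein, the fetal counterpart of albumin) had almost the same mean in both lines, 10.72 and 10.93, but not in each culture. In basal culture it was at 8.11 and 7.90 in 9A1 and at 10.53 and 10.45 in 14B3. In aggregates it was at 12.52 and 10.93 in 9A1 and 11.20 and 10.64 in 14B3, and in Matrigel at 12.09 and 12.76 against 11.32 and 11.46. So Afp was 2.48 higher in 14B3 in basal culture (adjusted p = 0.00784 within that culture), while the differences of -0.81 in aggregates and -1.04 in Matrigel were not called, and the dependence on culture was (interaction adjusted p = 0.0138, limma).

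Among the fixed markers, Foxa1, a pioneer transcription factor of endoderm and liver, was higher in 14B3 by 0.74 ± 0.14 (adjusted p = 0.00948), and the call was kept. Its arrays ran from 7.77 through a median of 9.85 to 10.12 in 9A1 and from 8.62 through 10.48 to 10.96 in 14B3; the ranges overlapped over all cultures but not within any one. Sox9, a duct and progenitor transcription factor, was lower in 14B3 by 0.57 (-0.57 ± 0.10, adjusted p = 0.00638), with every array of both lines under the background guide; without the Matrigel arrays it differed by -0.47 (0.111). Krt7, a bile duct keratin, was 2-fold lower in 14B3 (-1.0 ± 0.24, adjusted p = 0.0297; 0.0962 with the random block, and -0.95 with 0.104 without the Matrigel arrays). Dlk1, a hepatoblast surface protein, differed by -0.58 without passing (adjusted p = 0.0892), and passed with the replicate block shared by both lines (0.0244).

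The genes highest in 14B3 against 9A1 included metabolic enzymes and 1 endodermal transcription factor. Acaa1b, a peroxisomal thiolase of fatty acid oxidation, ran from 5.61 through a median of 5.93 to 6.34 in 9A1 and from 8.22 through 10.24 to 11.52 in 14B3. No 9A1 array reached the background guide, and the 14B3 arrays were highest in aggregates. The difference was 4.0 ± 0.12 (15.9-fold, adjusted p = 2.38e-09). Acaa1a, the near-identical thiolase gene on the same chromosome, was at 10.50 in 9A1 and 10.67 in 14B3 and differed by 0.16 (adjusted p = 0.554).

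Sox17, a transcription factor of definitive endoderm, bile duct primordium and endothelium, ran from 6.51 through 6.97 to 7.11 in 9A1 and from 9.03 through 9.35 to 11.19 in 14B3. The 2 Matrigel arrays of 14B3, at 11.06 and 11.19, stood highest, and the lines did not overlap. The difference was 2.94 ± 0.11 (7.7-fold, adjusted p = 2.04e-08) and was not the same in each culture (interaction adjusted p = 0.00374): 2.15 in basal culture, 2.37 in aggregates and 4.32 in Matrigel. A second probe set for Sox17 gave 4.56.

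Cbr3, a carbonyl reductase, ran from 7.18 through 7.45 to 7.89 in 9A1 and from 7.67 through 11.31 to 12.14 in 14B3, where a basal culture array was the lowest. It was higher by 3.07 ± 0.23 (8.42-fold, adjusted p = 8.49e-06). Cbr1, a related reductase on the same chromosome, was also higher, by 0.98 ± 0.09 (adjusted p = 5.23e-05). Pla2g4a, the cytosolic phospholipase that releases arachidonic acid, was higher by 2.63 and Aspa, which cleaves N-acetylaspartate, by 2.41. Niban1, a stress-induced cytoplasmic protein, was higher by 2.39, and Tmprss2, a membrane serine protease, by 2.11 with all 12 arrays apart. Car8 (2.17), Mndal (2.17), Srgn (2.01), B4galnt2 (1.93) and Dsc2 (1.91) complete the 12 leading genes in this direction. Srgn (serglycin, a granule proteoglycan) differed by 0.23 in basal culture and by 4.70 in Matrigel (interaction adjusted p = 1.32e-04). These 12 calls were kept, though without the Matrigel arrays Srgn differed by 0.66 (adjusted p = 0.0821).

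**Figure D2:**
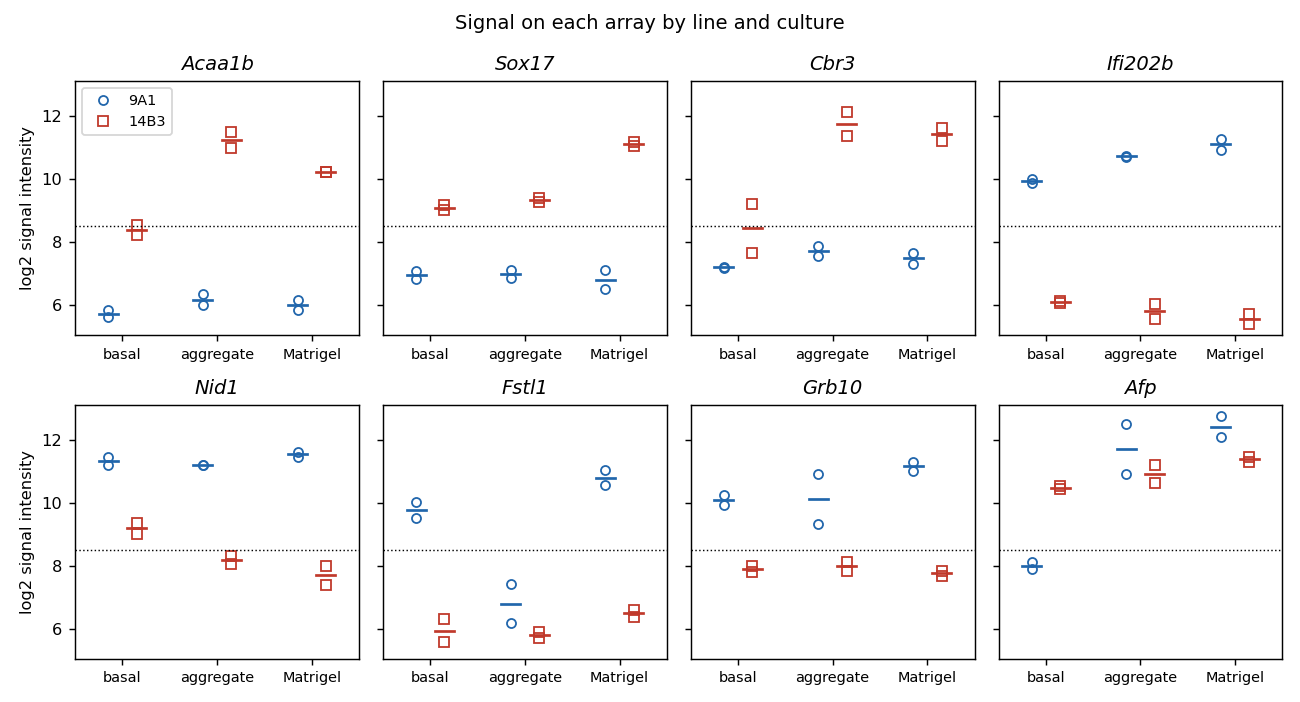
Log2 signal intensity of 8 genes on each of the 12 arrays, by culture, with 9A1 as blue circles and 14B3 as red squares; short bars are the means of 2 arrays and the dotted line is the background guide of 8.50. Ifi202b, Nid1 and Grb10 stand higher in 9A1 and Acaa1b, Sox17 and Cbr3 higher in 14B3 in each culture, Fstl1 is under the guide on every 14B3 array and on both 9A1 arrays in aggregates, and Afp stands higher in 14B3 in basal culture but not in the others.

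The widest difference of all was that of Ifi202b, an interferon-inducible member of the p200 family whose level is known to vary between inbred mouse strains. It ran from 9.87 through 10.74 to 11.29 in 9A1 and from 5.41 through 5.86 to 6.13 in 14B3, where every array was under the guide. It was 27.5-fold lower in 14B3 (-4.78 ± 0.10, adjusted p = 2.20e-10), with differences of -3.86 in basal culture, -4.94 in aggregates and -5.55 in Matrigel. Mndal, another p200 family gene of chromosome 1, went the other way, from a 9A1 median of 5.77 to a 14B3 median of 7.80, and no arrays of the lines overlapped. Ifi204, a further p200 gene of chromosome 1, differed by -0.33 (adjusted p = 0.292) at levels of 5.46 and 5.13.

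Several of the other leading genes lower in 14B3 encode secreted or matrix proteins. Nid1 (nidogen, which links laminin to type IV collagen in basement membranes) ran from 11.20 through 11.34 to 11.62 in 9A1 and from 7.40 through 8.19 to 9.38 in 14B3. It was level across cultures in 9A1 and lowest in Matrigel in 14B3, and it was 8.03-fold lower in 14B3 (-3.01 ± 0.12, adjusted p = 2.92e-08). Fstl1, a secreted follistatin-like glycoprotein that acts on BMP signalling, ran from 6.17 through 9.77 to 11.04 in 9A1 and from 5.58 through 6.10 to 6.60 in 14B3. Of its 9A1 arrays in aggregates, the one at 6.17 lay within the 14B3 range and the one at 7.43 above it. The difference was -3.04 ± 0.21 (adjusted p = 3.80e-06), -0.99 in aggregates and -4.31 in Matrigel.

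Scara3, a class A scavenger receptor family member, differed by -3.18 and Tmem267, a membrane protein, by -3.15, the latter alike in each culture (-3.28, -3.26 and -2.92). Epb41l3, a protein that ties the membrane to the cytoskeleton, was 3.79-fold lower (-1.92 ± 0.10) and was also level over cultures, at -1.84, -1.94 and -1.99. Pm20d1, an enzyme that makes N-acyl amino acids, differed by -0.59 in basal culture and -3.67 in aggregates (interaction adjusted p = 2.33e-04). Glipr1 (-2.11), Cxcl1 (-1.80), Serpina1b (-1.77) and Emp3 (-1.67) were the other leading genes. Each of these calls was kept, and without the Matrigel arrays Serpina1b differed by -1.23 (adjusted p = 0.256).

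**Figure D3:**
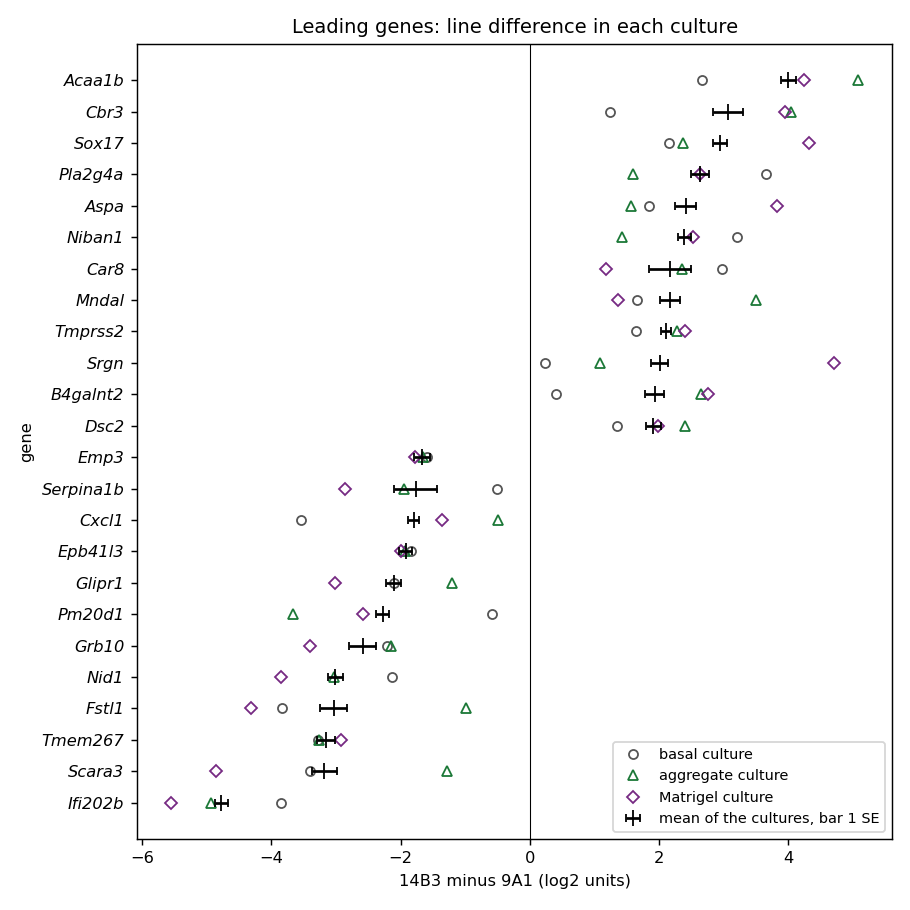
Line difference in basal culture (circles), aggregates (triangles) and Matrigel (diamonds) for the 24 leading genes, with the mean of the cultures as a black mark and a bar of 1 SE; the x axis is 14B3 minus 9A1 in log2 units and each row is a gene. Tmem267, Epb41l3 and Emp3 have nearly the same difference in each culture, whereas Srgn runs from 0.23 in basal culture to 4.70 in Matrigel and Cxcl1 from -3.54 in basal culture to -0.50 in aggregates.

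The dependence on culture was tested for each gene. The line by culture interaction was called for 116 autosomal genes (0.97%), and 93 of them also had a called line difference, which leaves 615 line differences with no interaction call. Among the 708 called genes, 591 had 1 sign in each culture. Without basal_9A1 replicate 1 the interaction was called for 57 genes and without aggregate_9A1 replicate 1 for 185.

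Grb10, an imprinted gene whose adaptor protein damps insulin and IGF receptor signalling, ran from 9.33 through 10.60 to 11.31 in 9A1 and from 7.69 through 7.84 to 8.12 in 14B3. It was 6.01-fold lower in 14B3 (-2.59 ± 0.21, adjusted p = 2.02e-05), with differences of -0.95 and -0.34 on its other probe sets, both dimmer. Of 27 measured imprinted genes, 4 were lower and 1 higher in 14B3 (18.5% called, against 5.92% of all autosomal genes), each kept. Ndn (necdin, a growth-restraining protein of neurons) was lower by 1.20 (-1.20 ± 0.17; -0.67 with the mean of its probe sets), Nnat by 0.78 (-0.78, under the guide in both lines) and Cd81, a tetraspanin, by 0.49 (-0.49), and Phlda2 was higher by 0.76. Igf2, the imprinted fetal growth factor, differed by -0.14 (adjusted p = 0.647).

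Of 54 measured matrix and mesenchymal genes, the longest of the lists, 10 (18.5%) were lower and 0 higher in 14B3, 8 of the 10 kept, with a list median of -0.17 against 0.04 over all autosomal genes. Shorter lists had larger called shares, 35.3% of 17 cholesterol synthesis genes, 33.3% of 21 Hippo pathway targets and 31.8% of 22 progenitor surface genes. Besides Nid1 they included Igfbp7, a secreted IGF-binding protein, which was 4.53-fold lower (-2.18 ± 0.30). One other Igfbp7 probe set, at a mean of 8.96, gave 0.15 (adjusted p = 0.685 over all probe sets), so its probe sets disagree. Cdh2 (N-cadherin) differed by -1.43, Col6a1 by -0.97, Fbln2 (fibulin) by -0.96, Col5a2 by -0.90 and Acta2 (smooth muscle actin) by -0.77. The other probe set of Acta2, under the guide at 5.58, gave 0.20 (adjusted p = 0.41 over all probe sets), and the mean of both gave -0.28 (0.0402). In Matrigel 15 of the 54 were lower and the list median was -0.36, against 3 lower in basal culture (median -0.09) and 2 in aggregates (median 0.00). Over all 11957 autosomal genes lower calls were also most frequent in Matrigel, with 286, against 105 in basal culture and 109 in aggregates. On its brighter probe set Acta2 was in Matrigel at 11.17 and 10.62 in 9A1 and 8.82 and 8.84 in 14B3, while in the other cultures all arrays of both lines lay between 8.63 and 9.08. The count of lower genes ran from 8 without basal_14B3 replicate 1 to 15 without Matrigel_9A1 replicate 2. Without the Matrigel arrays Acta2 differed by -0.12 (adjusted p = 0.783), Fbln2 by 0.00 (0.998) and Col6a1 by -0.19 (0.525). Col5a2 differed by -0.59 (0.107), Cdh2 by -1.24 (0.119) and Igfbp7 by -1.70 (0.0762). Col5a1 (-0.57 over cultures) differed by 0.01 (0.993) and Col18a1 (-0.48 over cultures) by -0.34 (0.142), while Nid1 kept its call. Tagln (-0.58 over cultures) differed by -0.12 in basal culture, 0.26 in aggregates and -1.87 in Matrigel. Vim (vimentin), an intermediate filament of mesenchyme and cultured cells, differed by -0.21 (adjusted p = 0.491) at 13.34 and 13.13.

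Markers of other liver cells were read beside this. Of the stellate and fibroblast genes, 15 of 20 were under the guide on all arrays, and the summed linear intensity of the list was 6239 to 10580 in 9A1 and 5516 to 8016 in 14B3. The markers Des (7.83 and 7.91), Pdgfra (7.17 and 7.25), Pdgfrb (6.58 and 6.51) and Lrat (4.98 and 5.05) were under the guide in both lines. The marker Col1a1 was above the guide only on Matrigel_9A1 replicate 1 (9.35). In Matrigel Col1a1 differed by -1.28 (adjusted p = 0.0155 within that culture, limma), and over cultures it was not called (-0.50, 0.0799). Within Matrigel 3 of the 20 stellate and fibroblast genes were called lower in 14B3, against 0 in basal culture and 0 in aggregates. Of the endothelial genes, 16 of 22 were under the guide on all arrays, with sums of 3538 to 4898 in 9A1 and 4677 to 7295 in 14B3. Their 3 calls (13.6%), Sox17, Cdh5 (0.64) and Vwf (0.39), were all higher in 14B3. With the random block Sox17 alone was called (adjusted p = 0.0771 for Cdh5 and 0.154 for Vwf). Cdh5 differed by -0.08 in aggregates and by 1.55 in Matrigel, and without the Matrigel arrays Cdh5 differed by 0.18 (adjusted p = 0.778) and Vwf by 0.15 (0.723). Pecam1 was at 6.37 and 6.41 and Stab2 at 7.08 in both lines, while Kdr, at 8.50 and 8.59, stood at about the level of the guide. Vwf was not called without 9 of the 12 arrays and was at 5.46 and 5.85. Of the haematopoietic genes 18 of 24 were under the guide on all arrays, with sums of 5712 to 9036 and 5399 to 7089, and Ptprc, Hba-a1, Adgre1 and Cd68 had means from 5.66 to 7.10. The single called haematopoietic gene was Csf1r, the receptor for colony stimulating factor 1, which ran from 9.43 through 10.59 to 11.78 in 9A1 and from 9.05 through 9.38 to 9.99 in 14B3 (-1.13 ± 0.08, adjusted p = 8.49e-06).

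Secreted signals followed a like split. Of 35 chemokines and cytokines, 6 (17.1%) were lower and 0 higher in 14B3, 3 of them kept, against 5.92% called of all autosomal genes. Cxcl1, a neutrophil chemokine, was at 9.09 and 8.94 in basal 9A1 and at 5.46 and 5.49 in basal 14B3, a difference of -3.54, against -0.50 in aggregates and -1.36 in Matrigel. Cxcl5 behaved in the same way, with -3.10, -0.26 and -0.55, and Cxcl12 differed by -0.99 with its widest difference in Matrigel (-1.92) and by -0.53 without the Matrigel arrays (adjusted p = 0.299). Of 38 TGF-beta and BMP pathway genes, 7 were lower and 1 higher (21.1% called). Fstl1, Tgfb1 (-0.78, the ligand), Bmp1 (-0.76, a procollagen protease) and Lefty1 (0.57) were kept, whereas Id2, Id3, Bmp4 and Tgfb2, with -0.59 to -0.38, were lost with the random block. The count of lower pathway genes ran from 4, without basal_14B3 replicate 2, aggregate_14B3 replicate 2, Matrigel_9A1 replicate 2 or Matrigel_14B3 replicate 1, to 8 without aggregate_9A1 replicate 2. Without the Matrigel arrays Tgfb1 differed by -0.57 (adjusted p = 0.0583), Bmp1 by -0.32 (0.167), Id2 by -0.70 (0.12), Bmp4 by -0.60 (0.13) and Tgfb2 by -0.19 (0.438).

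Of 21 Hippo pathway targets, 5 were lower and 2 higher in 14B3, with a list median of -0.24. Ankrd1 (-1.70 ± 0.23), Ccn2 (-1.45 ± 0.28), a matricellular growth factor, and Crim1 (-0.62 ± 0.08) were the kept calls. Ankrd1 and Ccn2 were low in aggregates of both lines and differed there by -0.05 and -0.48. Without basal_9A1 replicate 1, or without basal_14B3 replicate 1, 3 targets were lower, and without the Matrigel arrays Ankrd1 differed by -1.19 (adjusted p = 0.0875) and Ccn2 by -1.14 (0.236). Of 40 Wnt pathway genes 3 were lower and 0 higher, a called share of 7.5% that lies near the 5.92% of all autosomal genes. Rnf43 (-0.61, under the guide) was the kept one, at -0.47 (adjusted p = 0.106) without the Matrigel arrays. Of 29 ErbB, Met and FGF genes, 2 were lower and 2 higher (13.8% called). Mst1, a liver-made growth factor of the HGF family, was higher by 1.43 ± 0.14 (adjusted p = 7.33e-05). Spry1, a feedback inhibitor of receptor signalling, was lower by 0.66 (-0.66 ± 0.11), at -0.60 (adjusted p = 0.0688) without the Matrigel arrays.

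Of 41 measured genes of hepatocyte secreted proteins 5 were lower and 1 higher in 14B3 (14.6% called, against 5.92% of all autosomal genes), 2 of the 6 kept, and the enzyme and transporter list had 7 calls in 32 (21.9%), 5 lower and 2 higher, with 2 kept. Both list medians were 0.01. The count of lower secreted protein genes rose to 10 without aggregate_9A1 replicate 2. It fell to 2 on leaving out replicate 2 of basal_9A1, of aggregate_14B3 or of Matrigel_9A1, or replicate 1 of basal_14B3, and to 3 without the other basal_14B3 array. That of lower enzymes and transporters was 2 without aggregate_14B3 replicate 1 or Matrigel_9A1 replicate 2, and 3 without either basal array of either line, aggregate_14B3 replicate 2 or Matrigel_14B3 replicate 2. Serpina1b (an alpha-1-antitrypsin) was at 10.65 and 8.21 in aggregates of 9A1 and 7.81 and 7.15 in those of 14B3, and differed by -1.77 ± 0.33 over cultures. Cps1, the entry enzyme of the urea cycle, differed by -1.03 ± 0.13, and Arg1, its last enzyme, by 1.51 ± 0.17 in the opposite direction. Arg1 was at 5.31 to 5.65 in 9A1 and reached 8.56 and 8.02 in 14B3 in Matrigel. Without the Matrigel arrays Cps1 differed by -0.53 (adjusted p = 0.207) and Arg1 by 0.85 (0.0878). Of 30 acute phase and complement genes 2 were called (6.67%), near the share of all autosomal genes. C9, a pore-forming complement protein, was higher by 1.53 ± 0.14 and Crp was lower by 1.19 (-1.19 ± 0.17), both kept. Without the Matrigel arrays Crp differed by -0.61 (adjusted p = 0.261).

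Of 22 liver transcription factors 4 were called (18.2%). Gata4 (0.70 ± 0.10) and Foxa1 were higher and kept. Without the Matrigel arrays Gata4 and Foxa1 differed by 0.47 (adjusted p = 0.118) and 0.67 (0.0989). Hhex (-0.73, 0.0473) and Nr5a2 (-0.51, 0.0275) were lower and lost with the random block, and each was called without at most 6 of the 12 arrays. Hhex differed by -0.43 (0.597) and Nr5a2 by -0.33 (0.429) without the Matrigel arrays. Of 23 bile duct genes 4 were lower and 1 higher (21.7% called, median -0.08). The lower count was 2 without either basal_14B3 replicate, aggregate_14B3 replicate 2, Matrigel_9A1 replicate 1 or Matrigel_14B3 replicate 2. Bicc1, an RNA-binding protein of duct epithelium, was lower by 1.69 (-1.69 ± 0.27) and kept, at -1.57 (adjusted p = 0.0632) without the Matrigel arrays. Of 22 progenitor surface genes 5 were lower and 2 higher (median -0.20), and Cdh2, Ncam1 (-0.52), Cd81 and Cd34 were the kept ones. Cd34 differed by -1.31 in basal culture and 0.25 in Matrigel, and Ncam1 by 0.34 in basal culture and -1.43 in Matrigel. Ncam1 was not called with the mean of its 6 probe sets (-0.16, adjusted p = 0.231), nor without the Matrigel arrays (-0.06, 0.885). Among 35 junction and keratin genes 3 were higher and 2 lower (14.3% called). Krt7 and Tjp1 (-0.42), a tight junction scaffold, were the lower ones and were lost with the random block; Tjp1 differed by -0.51 (adjusted p = 0.0601) without the Matrigel arrays. The higher ones were kept: Dsc2 (a desmosomal cadherin), Tjp3 (1.05, and 0.77 with adjusted p = 0.0529 without the Matrigel arrays) and Cldn6 (1.42). Cldn6, a claudin of early epithelia, was at 10.25 and 9.53 in basal 14B3, and on all other arrays of both lines it was under 8.50.

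Glutathione and oxidative stress genes gave the most calls higher in 14B3. Of 40 measured, 9 were higher and 2 lower (27.5% called), 5 of the 11 kept, with a list median of 0.06. Cbr3, Gstt2 (1.32 ± 0.17), Gstt1 (0.85 ± 0.08) and Gstp1 (0.46 ± 0.08), the last 3 glutathione transferases, were higher and kept, and Akr1b8 (-0.64), an aldo-keto reductase, was lower and kept, at -0.56 (adjusted p = 0.0648) without the Matrigel arrays. Gstt2 and Gstt1 differed by 0.17 and 0.22 in basal culture and by 2.34 and 0.99 in Matrigel. Nqo1, a quinone reductase, was higher by 1.00 ± 0.20 and was lost with the random block (adjusted p = 0.0571) and without the Matrigel arrays (0.92, adjusted p = 0.135). Hmox1, another stress-induced enzyme, was lower by 0.48 (-0.48), and was not called without 7 of the 12 arrays, nor without all Matrigel arrays (-0.56, adjusted p = 0.0821). The count of higher genes ran from 5 without basal_14B3 replicate 2 to 11 without aggregate_14B3 replicate 1.

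Every call among sterol and amino acid genes was higher in 14B3, but few of these calls were kept. Of 17 measured cholesterol synthesis genes 6 were higher and 0 lower, with a list median of 0.35 over cultures and 0.66 in basal culture. Fdft1 (squalene synthase, 0.52), Mvd (0.51) and Stard4 (0.49) led them, and with the random block 0 of the 6 were called. With the mean of its probe sets Fdft1 differed by 0.28 (adjusted p = 0.109), and without the Matrigel arrays Stard4 differed by 0.50 (0.0714). The count fell to 1 without basal_14B3 replicate 1, to 2 without either basal_9A1 replicate, aggregate_9A1 replicate 1, Matrigel_9A1 replicate 1 or Matrigel_14B3 replicate 1, to 3 without aggregate_14B3 replicate 2, and rose to 10 without aggregate_9A1 replicate 2. Of 31 amino acid and unfolded protein stress genes 6 (19.4%) were higher and 0 lower, with medians of 0.19 over cultures and 0.31 in basal culture. Chac1, a glutathione-degrading target of the stress response, was the kept one, at 10.25 and 9.49 in basal 14B3 against 7.83 and 7.94 in basal 9A1. The count was 2 without basal_14B3 replicate 2 and 3 without basal_9A1 replicate 1, aggregate_9A1 replicate 2, aggregate_14B3 replicate 2 or Matrigel_9A1 replicate 2. Psph (0.92), Trib3 (0.72) and Atf4 (0.31) had adjusted p-values from 0.0253 to 0.0473 and were lost with the random block; Trib3 differed by 1.00 (adjusted p = 0.101) without the Matrigel arrays.

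Fatty acid genes split evenly, with 2 of 42 higher and 2 lower, 9.52% called against 5.92% of all autosomal genes. Scd1, the desaturase that makes oleic acid, was the kept call and changed direction with culture. In basal culture it was at 9.66 and 10.14 in 9A1 and at 10.89 and 10.96 in 14B3, higher in 14B3 by 1.02 (adjusted p = 0.0391 within that culture, limma). It was lower in 14B3 in aggregates (-2.08, 3.44e-04) and in Matrigel (-1.27, 0.00687), so the mean over cultures was -0.77 ± 0.13, and without the Matrigel arrays -0.53 (adjusted p = 0.0973). Fabp1, a fatty acid binding protein of hepatocytes, differed in basal culture, at 6.73 and 7.10 in 9A1 and 9.15 and 10.59 in 14B3 (2.96, adjusted p = 9.50e-04 within that culture). In aggregates and Matrigel it was between 13.15 and 14.44 on all arrays and differed by -0.19 in each. Its mean of 0.86 ± 0.20 was lost with the random block. Of 26 hypoxia and glycolysis genes Vegfa (0.42) was higher and Eno2 (-0.71) lower, 7.69% against 5.92% of all genes, and both were lost with the random block and without the Matrigel arrays (0.51, adjusted p = 0.075, and -0.71, 0.0748). Of 18 genes of the insulin-like growth factor axis (11.1% called) Igfbp7 was lower and Igfbp3 (0.64) higher. Igfbp3 was lost with the random block and without the Matrigel arrays (0.50, adjusted p = 0.361).

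Of 40 proliferation genes 2 were higher and 1 lower, a called share of 7.5% that lies near the 5.92% of all autosomal genes, and 0 of the 3 were called with the random block. The higher count was 1 without basal_9A1 replicate 2 and 6 without aggregate_9A1 replicate 1. They were Ube2c, a ubiquitin-conjugating enzyme of mitosis (0.67), Cdt1, a replication licensing factor (0.37), and Pttg1, securin (-0.45, with 0.33 in aggregates). Cdt1 differed by 0.28 (adjusted p = 0.227) and Pttg1 by -0.28 (0.401) without the Matrigel arrays, and with the mean of its probe sets Cdt1 differed by 0.20 (0.185). Of 36 cell cycle inhibitor and p53 pathway genes 4 were lower and 2 higher (16.7%), 4 of the 6 kept. The kept calls include Ccnd1 and Mtap, which the list holds although neither is a cell cycle inhibitor. Ccnd1, the G1 cyclin, was lower by 0.95 (-0.95 ± 0.16), and the cyclin-dependent kinase inhibitor Cdkn2b by 1.40 (-1.40 ± 0.25), both kept; without the Matrigel arrays Ccnd1 differed by -0.66 (adjusted p = 0.186) and Cdkn2b by -1.22 (0.129). Mtap, the methylthioadenosine phosphorylase gene that lies beside Cdkn2a and Cdkn2b on chromosome 4, was higher by 1.47 ± 0.11 (adjusted p = 8.49e-06), and its 3 other probe sets gave 1.07 to 1.45. Cdkn2a was under the guide in both lines (6.77 and 6.54, adjusted p = 0.385). No Hox gene of the 30 measured was called by limma, and 26 of them had a mean under the guide.

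**Figure D4:**
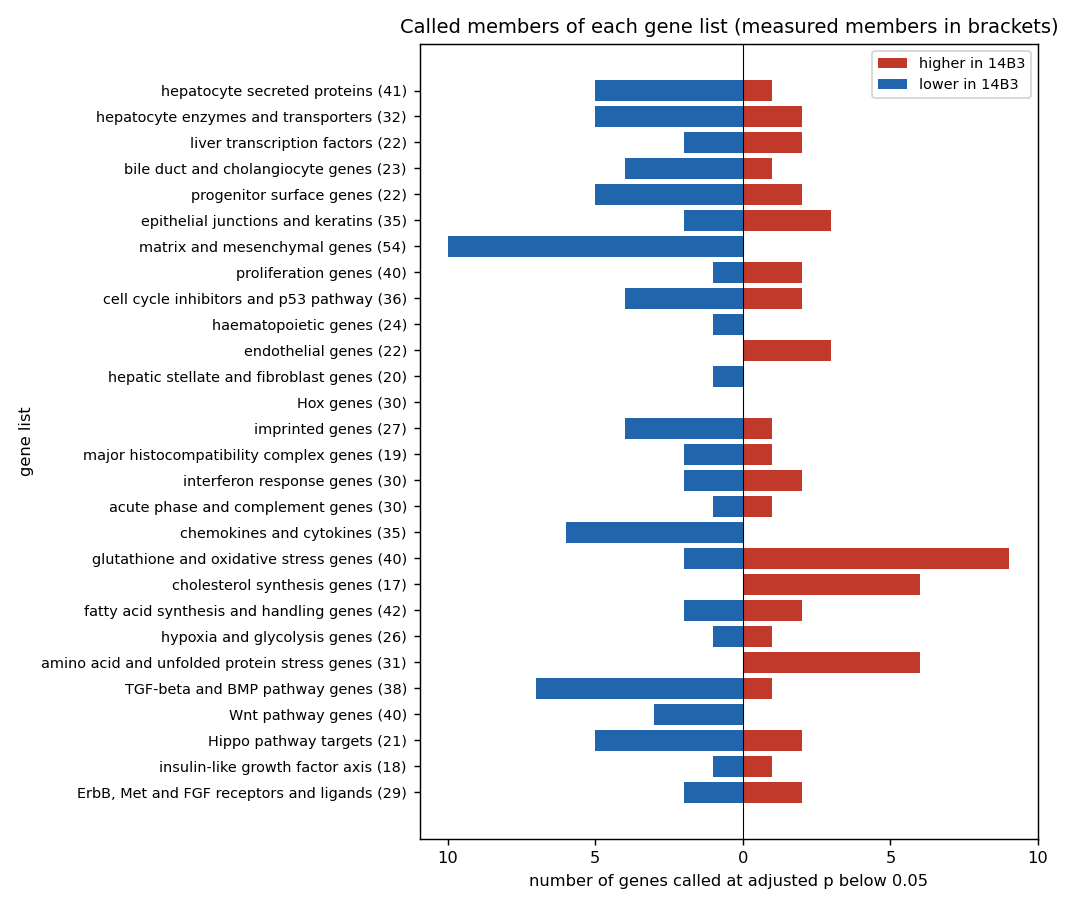
Number of called members in each of the 28 gene lists, higher in 14B3 to the right in red and lower to the left in blue, with the number of measured autosomal members in brackets. Matrix and mesenchymal genes have 10 lower and 0 higher, and glutathione and oxidative stress genes 9 higher and 2 lower.

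Genes known to be polymorphic between strains were also among the calls. Nnt, the mitochondrial transhydrogenase that carries a deletion in C57BL/6J mice, was lower in 14B3 by 0.66 (-0.66 ± 0.08, adjusted p = 2.89e-04), with 9A1 arrays from 9.68 through 9.91 to 10.27 and 14B3 arrays from 9.08 through 9.23 to 9.71. Both lines were above the guide on every array. The probe sets' position relative to the deletion is not given in the sources used here. H2-K1, a class I histocompatibility gene, was lower in 14B3 by 1.16 (-1.16 ± 0.13) on its brightest probe set, while another of its 4 probe sets gave 0.20 (adjusted p = 0.551). H2-D1 was higher by 1.25 ± 0.18 on its brightest probe set and lower by 1.19 on another of its 9 probe sets, and the mean of the 9 differed by -0.08 (adjusted p = 0.768), so its direction is uncertain. Class I genes are near-identical copies, and which of them each probe set reads is uncertain. Interferon response genes gave 4 calls among 30 measured (13.3%), split evenly by direction. Ifitm2 (-1.38 ± 0.12) and Irgm1 (-0.33, with 0.53 in aggregates, and not called without 9 of the 12 arrays) were lower. Oasl1 (0.63) and Oasl2 (0.53), oligoadenylate synthetase-like proteins, were higher. Oasl1 differed by 0.33 (adjusted p = 0.208) and Irgm1 by -0.17 (0.611) without the Matrigel arrays. Over all called genes with several probe sets, 140 of the 151 other probe sets above the guide had the sign of the brightest one.

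The differing genes were set against their chromosomes (mouse gene table, GRCm38.p6, used for chromosome and order only). Chromosome 7 held 65 genes lower and 14 higher in 14B3 of 958 measured, so 6.78% were lower, against 3.14% on the other autosomes and 1.44% to 4.32% on each of them. Its median gene difference was -0.021, and the medians of the other chromosomes ran from 0.016 to 0.063; 54.8% of its genes had a negative difference, against 35.6% elsewhere. The lower genes were spread along the chromosome, with 15, 14, 19 and 17 in 4 stretches of equal gene number along it, and most differences were modest: their median was -0.48 and 51 of the 65 lay between -0.3 and -0.8. Emp3, Ifitm2 (-1.38), Serpinh1 (a collagen chaperone, -1.32), Ampd3 (-1.31) and Ndn led them. In the exact permutation test of the line labels within cultures (two-sided, over every arrangement) the chromosome 7 median did not stand out (p = 0.407, adjusted over 19 autosomes 0.43). Taken relative to the other autosomes, an alternative chosen after seeing the data, it was -0.066 (exact p = 0.0185, adjusted 0.088). The smallest p this design can give is 0.00926, reached by chromosome 2 with an adjusted 0.176. The count of 65 fell to 33 without basal_14B3 replicate 1, to 35 without basal_9A1 replicate 1 or Matrigel_9A1 replicate 1, to 38 without basal_14B3 replicate 2, to 39 without Matrigel_14B3 replicate 2, to 41 without aggregate_14B3 replicate 2, and to 24 both with the random block and without the Matrigel arrays. It rose to 113 with the replicate block shared by both lines and to 105 with the block within each line.

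A run of 4 neighbouring measured genes on chromosome 4 was lower in 14B3 together. Aco1 (cytosolic aconitase, which also acts as an iron regulatory protein) ran from 11.05 through 11.86 to 12.51 in 9A1 and from 10.03 through 10.41 to 11.02 in 14B3, with no overlap, and was 2.35-fold lower (-1.23 ± 0.11, adjusted p = 3.31e-05). Topors, a nuclear ubiquitin and SUMO ligase, differed by -0.89 ± 0.09, Smim27 by -0.53 ± 0.10, and Ndufb6, a subunit of respiratory complex I, by -1.0 ± 0.09. Ndufb6 arrays ran from 11.71 to 12.04 in 9A1 and from 10.62 to 11.15 in 14B3. The interaction adjusted p was 1 for each of the 4, and the calls were kept, except that Smim27, whose gene overlaps that of Topors, was not called with the mean of its probe sets (-0.25, adjusted p = 0.092). The neighbours on either side, C9orf72 (-0.01) and Aptx (-0.06), were not called. The window of 10 neighbours from Aco1 to Bag1 had a median of -0.36, the largest absolute median of 11780 windows, which was how it was chosen, so no test is given.

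**Figure D5:**
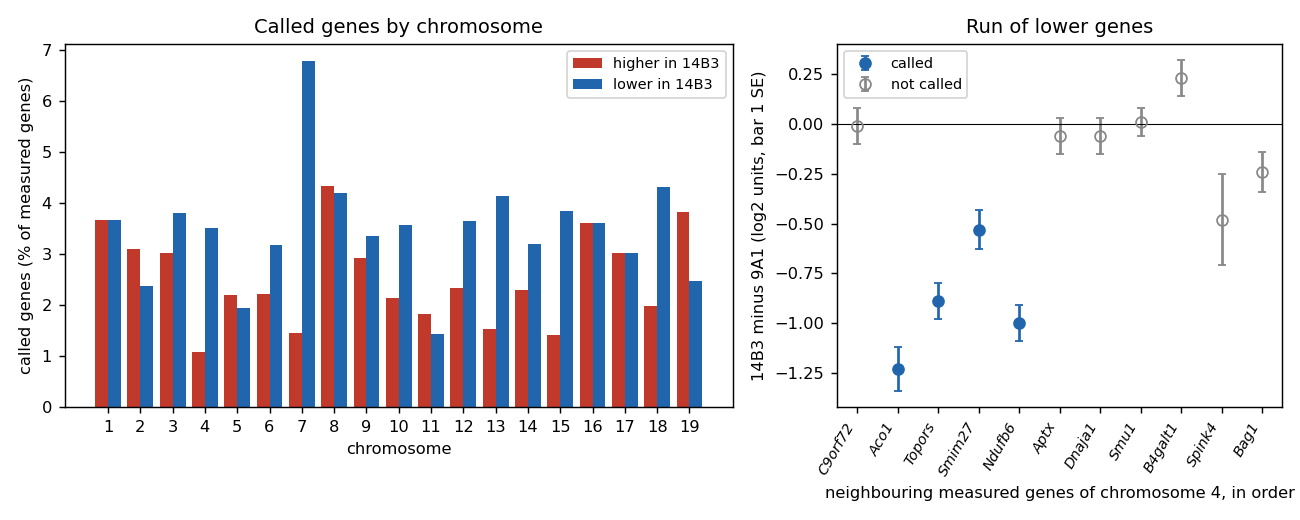
Left, called genes as a percentage of the measured genes of each autosome, higher in 14B3 in red and lower in blue; chromosome 7 has 6.78% lower against 3.14% on the other autosomes. Right, line difference (log2 units, bar 1 SE) of neighbouring measured genes of chromosome 4 in chromosomal order, with the 4 called genes Aco1, Topors, Smim27 and Ndufb6 filled.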

How the data were processed

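Total RNA of 12 cultures (2 lines, 3 cultures, 2 biological replicates each) was labelled and hybridised to Affymetrix 430A arrays. The authors summarised the probe sets with RMA in R 2.3.1, per the submitters' processing notes, and deposited signal intensities on a linear scale (14.4 to 27318). Genome build and annotation of that step are not given in the sources used here. Precision is limited by there being 2 arrays per group.

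The deposited intensities were taken to log2 with no further scaling. Of 22690 probe sets, 20380 had 1 gene symbol in the platform annotation, 691 several, 1555 none, and 64 were controls; 20351 matched the mouse gene table (GRCm38.p6). The brightest probe set stood for each of 12393 genes, of which 11957 were autosomal. A model with a mean for each line and culture was fitted with limma 3.58.1 in R 4.3.3, with 6 residual degrees of freedom, and p-values were adjusted over all 12393 genes. Genes of X and Y are not described.

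Same-numbered samples deviated together in all 15 pairs of groups (correlation 0.10 to 0.64; between lines 0.57 in basal culture, 0.27 in aggregates and 0.64 in Matrigel), so the replicate number was also fitted as a block shared by both lines, within each line, and as a random block (correlation 0.27). No 2 replicate arrays held identical values. On simulated data from the same 12393 genes, 200 were changed. Of changes of 0.5 log2 units 62.1% were recovered, of 1 unit 97.6% and of 2 units 99.7%, with 3.39% false calls. The simulated noise was independent between arrays, and each change was alike in every culture. The simulation therefore does not show the false call share under the replicate correlation above. The other alternatives were array scaling, an offset of 50, the mean of probe sets, array weights, an additive model and leaving out each array or the Matrigel arrays.

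The comparison, the gene lists and the markers were chosen with earlier results of these data known. Genes were named by rule: the 12 largest called differences per direction with 1 sign and no overlap of the lines within any culture, up to 3 called members of each of 28 lists, 18 fixed markers (1 on X left out), up to 4 genes per direction on opposite sides of the background guide, and the called genes of the 2 windows of 10 neighbours with the largest median difference. Other named genes (further list members, Acaa1a, Cbr1, Ifi204, further chromosome 7 genes, window neighbours and those of the closing observations) were chosen after their values were seen.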

Additional observations from a re-analysis of the deposited data

Results flagged for a closer look

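The difference between the lines depended on the culture (interaction adjusted p, limma) for 29 of the 108 named genes, against 116 of 11957 autosomal genes (0.97%). Most named genes were chosen for their called line difference in these same data, so the 2 shares cannot be compared. Among genes whose line difference was widest in Matrigel, the value was 0.000132 for Srgn, 0.00374 for Sox17, 0.0046 for Acta2, 0.0233 for Aspa, 0.0126 for C9, 0.0392 for Cps1 and also for Nid1, 0.0167 for Ifi202b, 0.0172 for Glipr1, 0.0103 for Scara3, 0.0133 for Fstl1, 0.00566 for Ncam1 and 0.0129 for B4galnt2. It was widest in aggregates for Pm20d1 (0.000233), Acaa1b (0.00492), Csf1r (0.013), Mndal (0.0355) and Cbr3 (0.0489). It was widest in basal culture for Cxcl1 (0.000155), Cxcl5 (0.000493), Cldn6 (0.00057), Pla2g4a (0.0308), Niban1 (0.0138), Chac1 (0.0183), Afp (0.0138) and Ifitm2 (0.0122). It was 0.0122 for Fabp1 (2.96 in basal culture, -0.19 in aggregates and in Matrigel), 0.00137 for Scd1 (1.02, -2.08 and -1.27 in the same order) and 0.0489 for Pttg1 (-0.89, 0.33 and -0.80).

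Each of the 108 named genes was checked in each line, as a group of 6 arrays. In 5 of these groups 1 array stood far from the others by its gap over the group's range. This was Dixon's test at the 95% level, which chance passes in about 1 in 20 groups, so 5 are fewer than chance would give. Each group mixes arrays of different cultures, which the test does not allow for, so these arrays are not shown to be outliers. Cdh1 was lowest in 14B3 in basal replicate 1 (10.69), Cdkn2a highest in 9A1 in Matrigel replicate 2 (7.06), Cxcl1 lowest in 14B3 in Matrigel replicate 1 (5.20), Fdft1 highest in 9A1 in aggregate replicate 2 (11.68) and Serpina1b highest in 14B3 in aggregate replicate 1 (7.81).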

How the results depend on the processing

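The 708 line calls became 722 (260 higher, 462 lower in 14B3) with arrays shifted to 1 median and 830 (352, 478) with quantile normalization. With genes above the background guide there were 455 calls, 246 of them lower, 37 interaction calls, and 1.47% (87) and 3.53% (209) of 5923 genes called in aggregates and Matrigel, against 1.49% (178) and 3.7% (443) of 11957. The additive model gave 452 calls, 253 lower. Requiring 1 log2 unit left 125 (43 higher, 82 lower). Array weights called 4.09% in basal culture and 2.2% in Matrigel. Without the Matrigel arrays there were 282 calls (132 higher, 150 lower) and 52 for the interaction.

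The replicate block shared by both lines gave 1193 calls (550 higher, 643 lower), 237 for the interaction, and 3.4%, 2.27% and 5.93% of genes in basal culture, aggregates and Matrigel. The replicate block within each line gave 1071 calls, 469 higher, 230 for the interaction and 2.81% in basal culture. The random replicate block gave 326 (125 higher, 201 lower) and 271 for the interaction.

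Leaving out 1 array gave 465 to 712 calls, 191 to 311 higher and 274 to 416 lower, 57 to 185 for the interaction, and 0.493% to 1.79%, 0.577% to 1.53% and 1.81% to 3.98% of genes in basal culture, aggregates and Matrigel. Counts of higher calls fell to 192 without basal_9A1 replicate 1 and 191 without basal_14B3 replicate 2. Interaction calls fell to 57 and 74 without basal_9A1 replicates 1 and 2, 68 without basal_14B3 replicate 2, 74 without aggregate_14B3 replicate 2 and 77 without Matrigel_14B3 replicate 2, and rose to 185 without aggregate_9A1 replicate 1. The basal share of 1.81% fell to 0.493%, 0.987%, 0.912% and 0.519% without each basal array (9A1 replicates 1 and 2, then 14B3). The aggregate share fell to 0.577% without aggregate_14B3 replicate 2, and the Matrigel share to 1.81% without Matrigel_9A1 replicate 1 and 1.87% and 2.24% without Matrigel_14B3 replicates 1 and 2.

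Of the 108 named genes, 27 lost the call with the random replicate block, 47 without the Matrigel arrays, 14 with an offset of 50, 10 with the mean of probe sets, and 2 to 18 without 1 array. No called gene among them lost its call with the replicate block shared by both lines. H2-D1 reversed with the mean of its probe sets (-0.08, adjusted p = 0.768). The cause of these shifts was not tested. Values under the background guide limit what a difference of dim genes shows.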

Other observations

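Some genes outside the naming rule, chosen here after their values were seen, had line differences that opened in aggregates or Matrigel. Enpep, a membrane aminopeptidase, differed by -0.06 in basal culture, -6.13 in aggregates and -2.80 in Matrigel (interaction adjusted p = 7.79e-05, limma). Ms4a6b, a membrane protein of the MS4A family, differed by 0.15, -2.19 and -2.90 (7.79e-05). Nepn (nephrocan), a secreted leucine-rich repeat protein of endoderm, differed by -0.23, 2.22 and 3.26 (4.93e-04), and Aqp8, a water channel, by 0.50, 1.36 and 2.99 (0.0103). Akap12, a kinase scaffold, had its differences in basal culture (-2.06) and Matrigel (-2.42), with -0.27 in aggregates (0.0103).

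Others differed in 1 direction throughout. Gatm, the first enzyme of creatine synthesis, was higher in 14B3 by 2.12, 2.16 and 1.00 in the 3 cultures (mean 1.76 ± 0.12, adjusted p = 5.58e-06), and Aldoc, a glycolytic aldolase, by 2.57, 1.59 and 1.26. Crip1, a LIM domain protein, was lower by 1.63 (-1.63 ± 0.13, adjusted p = 1.10e-05).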
